A study of Mus musculus with 24 samples.

Results

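Galectins are small proteins that bind beta-galactoside sugars. The genes described are Lgals1, Lgals2, Lgals3, Lgals4 and Lgals9, found by symbol in the deposited count table. All 5 listed symbols were counted among 17811 genes, and 4 of them passed the filter on low counts that left 9328 genes for testing. Lgals1 did not pass it and is given by its counts alone.

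Galectins share a carbohydrate recognition domain that binds N-acetyllactosamine and related sugars on glycoproteins and glycolipids. They are made in the cytosol, leave the cell without a signal peptide, and cross-link glycans at the surface into lattices. Galectin-1 and galectin-2 (Lgals1, Lgals2) have a single domain and pair into dimers, galectin-3 (Lgals3) joins its domain to a long flexible tail, and galectin-4 and galectin-9 (Lgals4, Lgals9) carry a pair of domains on 1 chain. In the intestine, galectin-4 is known for holding brush-border enzymes in lipid rafts, and galectin-3 for apical sorting of glycoproteins.

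Messenger RNA was measured along the villus, the finger-like fold of the small intestine, in 4 male C57BL/6 mice aged 10 weeks on regular chow, with no other treatment named. Jejunal epithelial cells were sorted by flow cytometry, with stains for CD73 and CD26, into V1 (most bottom), V2 (bottom), V3 (bottom-middle), V4 (middle), V5 (middle-tip) and V6 (tip), so each mouse gave 1 bulk library per zone, 24 in all. The libraries held 806541 to 2266261 unique molecular identifiers (UMIs, each a molecule counted once). Levels are CPM, UMI counts scaled to a common library total by TMM. The method counts 1 tag at the 3-prime end of a transcript, so CPM is already a level per molecule and was not divided by gene length.

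The sort holds more than enterocytes. The 9 goblet cell markers were all detected, with a sum of 47484 to 94499 CPM in V1, 15564 to 46351 in V2 and 5411 to 16350 over V3 to V6. The 10 enterocyte markers went from a mean sum of 17265 CPM in V1 to 85373 in V6. Other secretory cells were present too. The mean sum of the 7 Paneth cell markers was lowest at the tip (V6), with 8611 CPM. It was highest in V5, with 19170 ± 15658 CPM (SD, n = 4). For the 7 enteroendocrine markers counted, the mean sum started at 2196 CPM (V1). It was lowest in the middle zone V4, with 622 CPM, and reached 6042 CPM at the tip. The part of these cells in the galectin levels was not tested. Stromal markers summed to 0.52 to 12.8 CPM per library, and Col6a2, Lum and Pdgfra were not analysed here. The 14 leukocyte markers summed to 8.01 to 60.01 CPM in V1 and 259 to 308 CPM in V6. Of these, 5 passed the filter and all rose, where 22.1% of all genes rose. The filter works by zone, so a marker low in V1 can pass through the zones where it is high. Nkg7, with 0.77 CPM in V1 and 7.79 in V6, is such a marker, so the count of 5 was partly set by the filter. CD73 is made from Nt5e, whose mean level was 1.13 CPM in V1, 31.3 in V4, 45.8 in V5 and 269 in V6, with 27.2 CPM in V4 and 20.9 CPM in V5 of mouse 4.

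Galectin transcripts were abundant and changed their make-up from bottom to tip. Lgals3 rose 6.04-fold and Lgals2 fell 2.71-fold between V1 and V6, while Lgals4, the most abundant of the 5, and Lgals9 were not called. In edgeR's quasi-likelihood test of the slope (log2 change per zone, Benjamini-Hochberg adjusted p under 0.05 over all genes tested), 1 of the 4 tested galectins rose, where 22.1% of all genes rose, and 1 fell, where 22.8% did. In V6 against V1, 20.2% of all genes were called higher and 18.6% lower, and again Lgals3 rose and Lgals2 fell. Any difference among the 6 zones was called for 27.4% of all genes and for the same 2 galectins. In either direction 44.9% of all genes had a called slope, so 2 calls among 4 galectins are near that background.

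**Figure D1:**
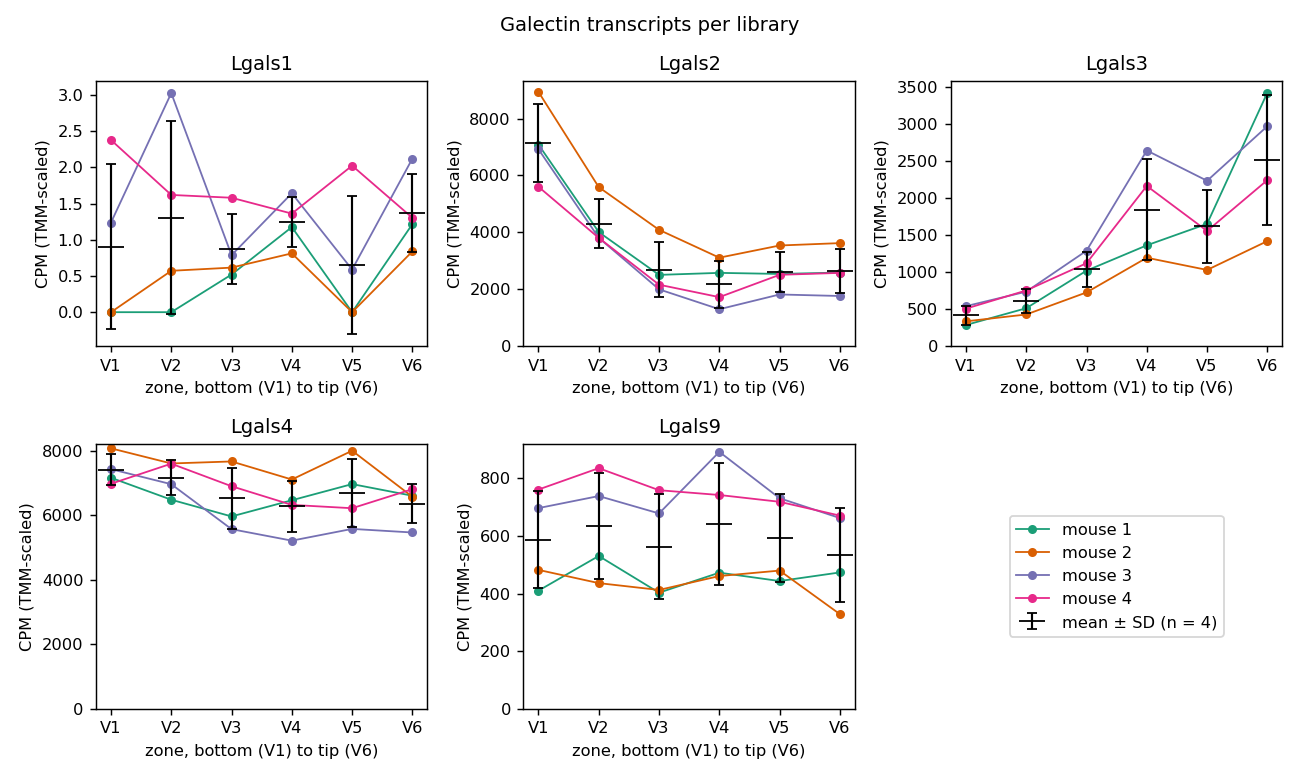
Level of each galectin transcript (CPM, linear axis) by zone, 1 line per mouse, with the mean and SD of 4 mice in black. Lgals2 is highest in V1 and Lgals3 in V6 in every mouse, Lgals4 and Lgals9 vary less between zones, and Lgals1 stays at or under 3.03 CPM.

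Lgals2, the single-domain galectin-2, was the member that fell. It lies on chromosome 15 of GRCm38 (78850860 to 78855529, minus strand, 4 exons; ENSMUSG00000043501). In V1 the 4 mice had 7084, 8937, 6921 and 5601 CPM, in the order of mouse 1 to 4. In V2 they had 4008, 5589, 3807 and 3804 CPM. In V3 they had 2503, 4088, 1996 and 2158 CPM. Each mouse was thus lower at both of the first steps.

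From V3 upward Lgals2 stayed low. In V4 the mice had 2574, 3108, 1296 and 1721 CPM. In V5 the values were 2537, 3537, 1815 and 2506 CPM. In V6 they were 2585, 3620, 1761 and 2574 CPM. Mouse 2 was the highest in every zone, and mouse 3 the lowest from V3 onward. All 4 V6 values lay below all 4 V1 values, which held for 16.5% of all genes.

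The mean of Lgals2 was 7135 ± 1372 CPM at V1 and 2635 ± 762 CPM at V6 (SD, n = 4). Its slope was -0.28 ± 0.047 log2 per zone (SE; edgeR adjusted p = 5.27e-05), and V6 minus V1 was -1.44 ± 0.28 (adjusted p = 0.000332), lower in 4 of 4 mice. Its fall was front-loaded: the curvature, the mean of both ends minus a weighted mean of V2 to V5, was 0.75 ± 0.18 on the log2 scale (adjusted p = 0.00822), a positive call made for 2.86% of all genes. That call ended without mouse 1 (0.78 ± 0.24, adjusted p = 0.0726) or without mouse 4 (0.72 ± 0.23, 0.11), at estimates of similar size. Over V2 to V6 the slope was -0.15 ± 0.065 (adjusted p = 0.143; 12.5% of genes called). Under the mouse block, in a fit added after the data were seen, it was -0.15 ± 0.027 (3.87e-05; 30.1% of genes). For V3 to V6 with the block it was 0.023 ± 0.037 (adjusted p = 0.8; 7.66% of genes).

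In order of mean level Lgals2 ran V1, V2, V3, V6, V5, V4. No neighbouring pair in that order was called without the mouse block. Over all 4 tested members, edgeR called 0 of 20 steps between adjacent zones without it, though 5 had an unadjusted p under 0.05, and DESeq2 and limma-voom called 0. Such calls were rare in all genes, at 1.51% for V2 minus V1, 0.289% for V3 minus V2, 0.0643% for V4 minus V3, 0% for V5 minus V4 and 0.268% for V6 minus V5. With mouse as a block, V2 lay below V1 by 0.74 ± 0.13 on the log2 scale (adjusted p = 0.000219) and V3 below V2 by 0.72 ± 0.13 (0.000806), where 5.72% and 1.79% of all genes were called lower. The other neighbours were not called with the block either, with an adjusted p of 0.978 for V6 against V3, 0.989 for V6 against V5 and 0.894 for V5 against V4.

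The goblet cell markers moved with Lgals2. Their mean sum was 72583 ± 24653 CPM at V1, 36648 ± 14246 at V2 and 11634 ± 4983 at V3 (SD, n = 4), and it then stayed between 11370 and 11614 in V4 to V6. All 9 markers fell on the slope, where 22.8% of all genes fell, and single markers were 3.83 to 6.81 times as high in V1 as in V3. The V2 library of mouse 1 had 15564 CPM of goblet markers, against 40688, 43987 and 46351 in mice 2, 3 and 4. Lgals2 in the same 4 libraries was 4008, 5589, 3807 and 3804 CPM. In a model with mouse and the mean log2 level of the 9 markers, chosen after seeing the data, the slope of Lgals2 was -0.073 ± 0.069 (edgeR adjusted p = 0.636) and 2.97% of all genes were called. Zone and mouse together account for 94.3% of that goblet score, so a part due to goblet cells and a part due to zone cannot be told apart here. In bulk libraries, fewer cells of a type and less RNA per cell cannot be told apart either.

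**Figure D2:**
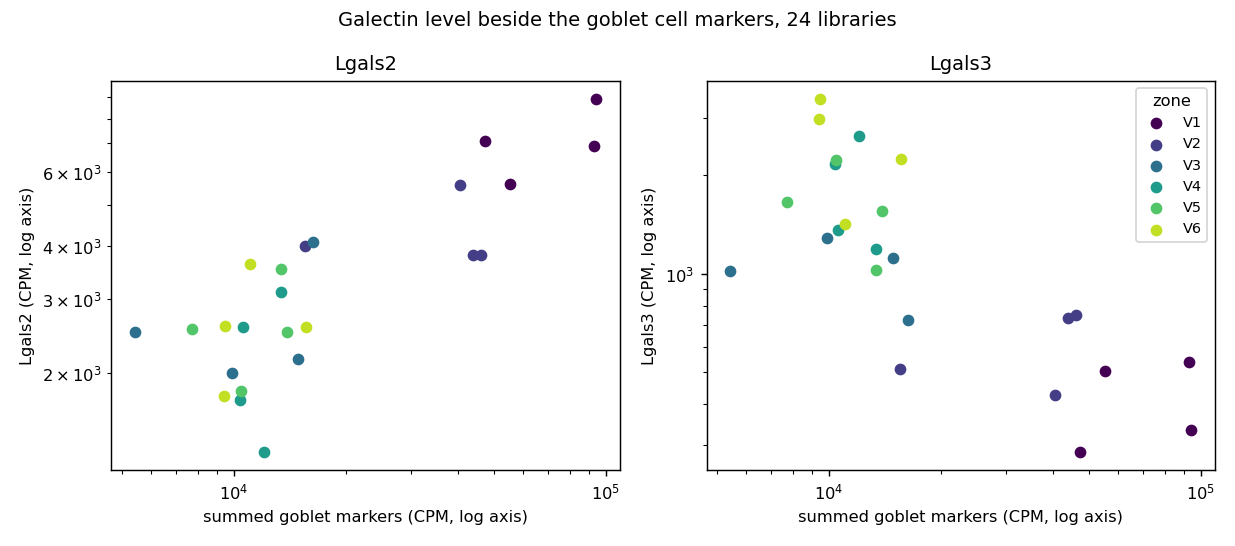
Lgals2 (left) and Lgals3 (right) against the summed goblet markers, all in CPM on log axes, 1 point per library coloured by zone. The V1 libraries lie at 47484 CPM of goblet markers or more, while V3 to V6 share a range of 5411 to 16350 within which Lgals3 runs from 725 to 3424 CPM.

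The promoter of Lgals2 is shown because it belongs to the member that fell, beside that of Lgals3, which rose. Both are the 250 bases before the RefSeq start, from GRCm38.p6, 5′ to 3′ along the gene (Lgals2 at chr15:78855530-78855779 on the minus strand, Lgals3 at chr14:47373610-47373859 on the plus strand). Capitals mark matches, on either strand, to letters typical of factors known in this epithelium: AGATAA for GATA factors, CAAAGTCC for HNF4, TTTATNG for CDX factors, TGANTCA for AP-1 and GGGCGG for a GC box.
Lgals2: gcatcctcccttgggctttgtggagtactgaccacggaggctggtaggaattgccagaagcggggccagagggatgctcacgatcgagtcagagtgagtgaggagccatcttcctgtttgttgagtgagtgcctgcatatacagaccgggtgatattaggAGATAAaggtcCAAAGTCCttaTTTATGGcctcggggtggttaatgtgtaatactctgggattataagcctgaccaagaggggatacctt
Lgals3: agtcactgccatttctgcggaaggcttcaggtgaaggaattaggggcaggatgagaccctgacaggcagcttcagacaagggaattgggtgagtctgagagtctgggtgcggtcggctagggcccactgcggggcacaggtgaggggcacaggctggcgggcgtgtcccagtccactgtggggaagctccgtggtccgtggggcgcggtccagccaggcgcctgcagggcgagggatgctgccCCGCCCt
The Lgals2 window holds AGATAA, CAAAGTCC and TTTATNG once each, with first bases at -90, -79 and -68 from the start and no overlap between them. Among all 32851 promoters of the same length, 9.99%, 1.2% and 9.81% hold these letters, and 10 promoters hold all 3. Lgals3 holds the GC box once, at -7, as do 32.7% of all promoters, and its window is 66% G or C against a median of 52.4%. The windows of Lgals4 and Lgals9 hold none of the 5 motifs, and TGANTCA, found in 6.75% of promoters, is in none of the 4. The letters were chosen with these sequences in view, and a match is a description of the letters, not of binding.

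Lgals3, the galectin with the flexible tail, was the member that rose. Its gene spans 47367751 to 47386160 of chromosome 14 (plus strand, 6 exons; ENSMUSG00000050335), so the RefSeq start used above lies inside the span that GENCODE gives. In V1 mice 1 to 4 had 285, 335, 539 and 506 CPM. In V2 they had 512, 427, 735 and 751 CPM. In V3 they had 1019, 725, 1288 and 1120 CPM. All 4 mice were higher at each of these steps.

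In V4 Lgals3 reached 1361, 1194, 2643 and 2164 CPM in mice 1 to 4. In V5 it was at 1652, 1029, 2234 and 1556 CPM. In V6 it was at 3424, 1419, 2971 and 2243 CPM. V5 was below V4 in mice 2, 3 and 4 and above it in mouse 1, and V6 was the highest zone in all 4 mice. Every V6 value exceeded every V1 value, as for 17.9% of all genes.

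Mean Lgals3 was 416 ± 125 CPM at V1 and 2514 ± 878 CPM at V6 (SD, n = 4). The slope was 0.52 ± 0.053 log2 per zone (edgeR adjusted p = 6.39e-08), and V6 minus V1 was 2.59 ± 0.32 (adjusted p = 1.34e-06). The rise differed in size between mice, at 12.01-fold in mouse 1 against 4.24, 5.51 and 4.43-fold in mice 2, 3 and 4. Without mouse 1, V6 minus V1 was 2.25 ± 0.36 (adjusted p = 0.000377). The slope was 0.48 ± 0.066 over V2 to V6 (adjusted p = 3.52e-05), and 0.36 ± 0.045 when V3 to V6 were fitted by themselves under the mouse block (9.73e-07). Lgals3 thus rose within V3 to V6, where Lgals2 was not called; the difference between the genes was not tested. Its curvature was -0.34 ± 0.19 (adjusted p = 0.329), and -0.32 ± 0.10 with the block (0.0237; 12.3% of genes called lower).

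By mean level the zones of Lgals3 ran V1, V2, V3, V5, V4, V6, and again no neighbours in that order were called without the block. With it, V2 was above V1 by 0.54 ± 0.16 on the log2 scale (adjusted p = 0.0224; 9.2% of genes called higher). V3 was above V2 by 0.78 ± 0.16 (0.00255; 3% of genes) and V5 above V3 by 0.62 ± 0.16 (0.0494; 0.976% of genes). V5 against V4 (0.928) and V6 against V4 (0.201) were not called. Of the steps between adjacent zones, V4 minus V3 was 0.79 ± 0.16 (0.00546; 1.93% of genes) and V6 minus V5 0.65 ± 0.16 (0.0259; 1.47% of genes).

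Macrophages are a known source of Lgals3. Of 11 macrophage and dendritic cell markers, 9 were counted, at 418 to 886 CPM summed per library in V1 and 824 to 1528 in V6, most of it Cd74 (820 CPM over all libraries), which epithelium can also express, and Lyz2. The defining markers Csf1r, C1qa, C1qb, C1qc and Cd68 together had 0 to 8.82 CPM in any library, with a mean of 2.31 in V1 and 5.74 in V6, and Adgre1 and Itgax were not analysed here. Of the list, 2 genes were tested and 1, Cd74, rose, a count too small to set apart from the 22.1% of all genes that rose. Among those under the filter, Fcer1g had 1.45 ± 0.621 CPM in V1 and 9.56 ± 3.45 in V6, and Tyrobp 0.58 ± 0.507 and 3.93 ± 1.32 (SD, n = 4; named after their values were seen). The part of such cells in the rise of Lgals3 was not tested. Of the 10 enterocyte markers 9 rose beside Lgals3, where 22.1% of all genes rose, and their part in its rise was not tested. In the model with mouse and goblet score the slope of Lgals3 was 0.49 ± 0.098 (edgeR adjusted p = 0.00567), close to its slope without them. Zone and mouse account for 94.3% of that score, so for Lgals3 too a goblet part and a zone part cannot be told apart.

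**Figure D3:**
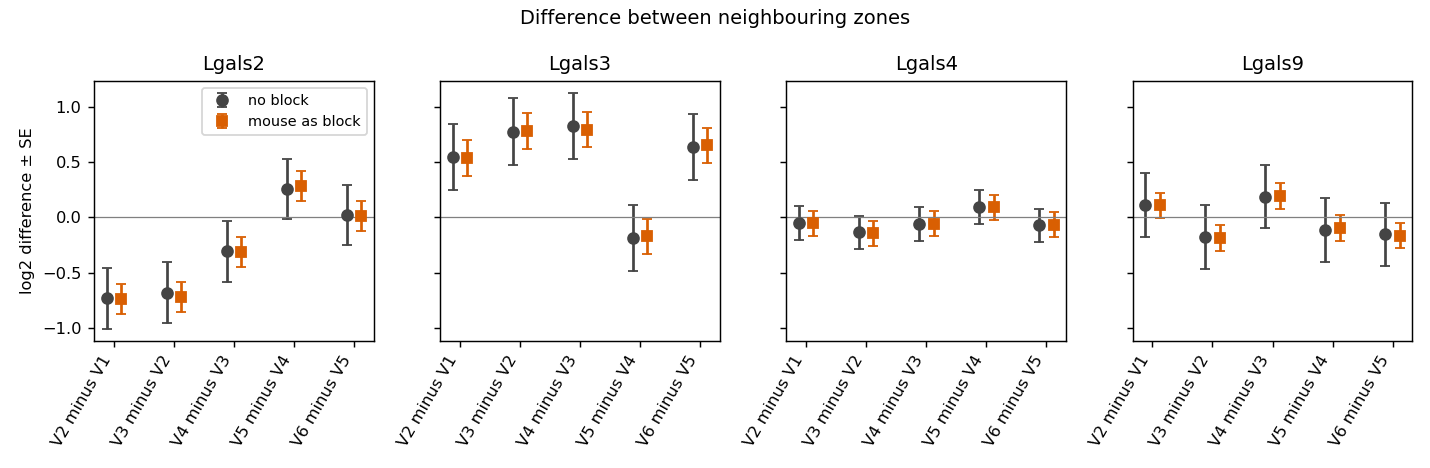
Log2 difference between neighbouring zones for the 4 tested galectins, with SE, without (circles) and with (squares) mouse as a block. Lgals2 lies below 0 up to V4 minus V3, Lgals3 lies above 0 at each step but V5 minus V4, and the block narrows the errors without moving the estimates much.

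Lgals4, the galectin of brush-border rafts, was the most abundant member at a mean of 6740.4 CPM, rank 18 of 17811 genes. It lies on chromosome 7 (28833854 to 28841708, plus strand, 10 exons; ENSMUSG00000053964). In V1 it had 7165, 8077, 7432 and 6979 CPM in mice 1 to 4. In V6 it had 6607, 6576, 5467 and 6811 CPM. V6 was lower in each mouse, but by only 1.02 to 1.36 times. Over all libraries the values ran from 5214 CPM in V4 of mouse 3 to 8077 in V1 of mouse 2.

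Neither the slope of Lgals4 (-0.041 ± 0.026 log2 per zone, edgeR adjusted p = 0.195) nor its V6 minus V1 (-0.22 ± 0.15, adjusted p = 0.259) was called. The 95% interval of the latter ran from -0.54 to 0.10, so the data set narrower limits on a rise than on a fall. Scaling by total UMIs in place of TMM gave a V6 minus V1 of -0.56 ± 0.16 (adjusted p = 0.00784), while shifting the median of all genes to -0.33. Relative to that median, the change stays near that under TMM. With mouse as a block the slope was -0.043 ± 0.019 (edgeR adjusted p = 0.0544, not called; 55.3% of genes called). When the deposited index replaced mouse as the block (a fit added after the data were seen), the slope was -0.050 ± 0.020 (adjusted p = 0.0318; 56.1% of genes).

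Lgals9, whose product binds the immune receptor TIM-3, differed more between mice than between zones. It lies on chromosome 11 (78962974 to 78984946, minus strand, 11 exons; ENSMUSG00000001123). Across the 6 zones mouse 1 ranged from 403 to 530.4 CPM and mouse 2 from 328 to 482. Mouse 3 ranged from 662 to 892 CPM and mouse 4 from 670.5 to 835. The ranges of mice 1 and 2 therefore lay below those of mice 3 and 4 in all zones. Mouse and deposited index nearly coincide (only V1 of mouse 2 shares the index of mouse 1), so they cannot be told apart here. What the index stands for is not stated in its header.

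Along the villus, mean Lgals9 was 587 ± 168 CPM at V1 and 534 ± 164 CPM at V6 (SD, n = 4). The slope was -0.023 ± 0.048 log2 per zone (edgeR adjusted p = 0.731; 95% interval -0.12 to 0.079), or -0.023 ± 0.019 with mouse as a block (adjusted p = 0.323). Havcr2, the gene of TIM-3, was not analysed here.

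Lgals1, the galectin-1 gene known from stroma and immune cells, was near the limit of detection. It lies on chromosome 15 (78926725 to 78930465, plus strand, 4 exons; ENSMUSG00000068220), on the same chromosome as Lgals2. All 24 libraries together held 37 Lgals1 UMIs, with 0 to 4 in each. The sums per zone from V1 to V6 were 6, 8, 5, 6, 4 and 8 UMIs, with no visible order. In the 5 libraries with 0 UMIs, a count of 0 still allows 1.32 to 3.31 CPM, for counting error only. The stromal sums given above were low, while the leukocyte sums were higher in V6 than in V1. Any relation of either to the level of Lgals1 was not tested.

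Between members, the balance shifted more than the total. The 5 genes took 1.56% to 2.06% of all UMIs in V1 and 1.01% to 1.13% in V6, with means of 1.77% ± 0.213 and 1.09% ± 0.051 (SD, n = 4). Scaled by TMM the fall was smaller, with mean sums of 15553.5 ± 1679.3 CPM in V1 and 12049.7 ± 924.6 in V6. Within the galectin UMIs, which no scaling affects, the share of Lgals2 went from 40.4% to 50.1% in V1 to 16.2% to 30.3% in V6. The share of Lgals3 went from 1.88% to 3.65% in V1 to 11.9% to 27.4% in V6. Lgals4 held 45.3% to 63.1% in every library, and Lgals9 2.70% to 8.88%.

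For every 100 Lgals2 UMIs there were 3.74 to 9.03 Lgals3 UMIs in V1. In V6 there were 132, 39.2, 169 and 87.1 in mice 1 to 4. Lgals3 therefore outnumbered Lgals2 at the tip in mice 1 and 3 and not in mice 2 and 4. By mean CPM, Lgals2 ranked 10 of 17811 genes in V1 and 46 in V6, while Lgals3 went from rank 327 to rank 52. Lgals4 ranked 9 in V1 and 18 in V6.

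**Figure D4:**
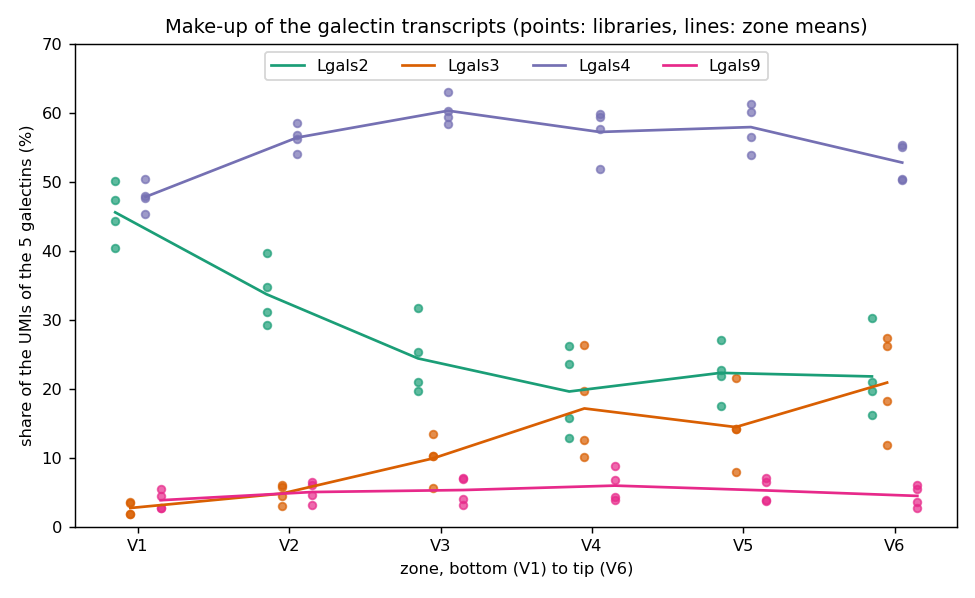
Share of each galectin in the UMIs of the 5 galectins (%), 1 point per library and a line through the zone means. Lgals2 falls from 45.6% to 21.8% and Lgals3 rises from 2.72% to 20.9% between V1 and V6, while Lgals4 remains the largest share in every zone mean.

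Other genes of the family were low. Lgals8, a tandem-repeat galectin known for marking damaged endosomes, had 25.5 ± 1.36 CPM at V1, 50.3 ± 5.18 at V3 and 45.8 ± 9.93 at V6 (SD, n = 4). Its slope was 0.14 ± 0.038 (edgeR adjusted p = 0.005), with a curvature of -0.49 ± 0.15 (adjusted p = 0.0398; 4.57% of genes had a negative call). Lgalsl, a galectin-related gene, had a mean of 17.9 CPM and a slope of 0.042 ± 0.056 (adjusted p = 0.559). Lgals12, known from fat cells, had 0 to 6 UMIs per library and did not pass the filter. Lgals7, Lgals6, Grifin and Clc were not analysed here.

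**Figure D5:**
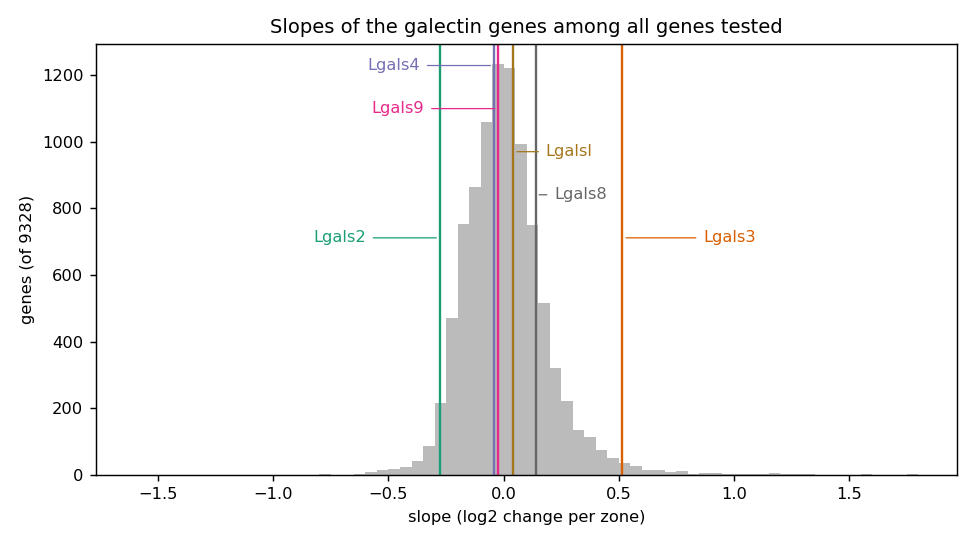
Slopes (log2 change per zone) of all 9328 genes tested as a histogram, with vertical lines at the 6 galectin genes tested. Lgals3 at 0.52 and Lgals2 at -0.28 lie in the tails, and Lgals4, Lgals9 and Lgalsl lie near the middle.

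The sugars that galectins bind depend on enzymes that branch N-glycans and extend them with N-acetyllactosamine. A list of 21 genes was drawn from these enzyme families, and not all of its members, B4galt6 and B3gnt3 among them, act mainly on N-glycans. Of the 21 genes 16 were tested, and 5 rose and 3 fell along the villus. Beside 22.1% and 22.8% of all genes, both counts are near the background. The median slope was 0.0080 beside -0.0047 for all genes. With mouse as a block 4 fell, the added one being Mgat2 (-0.064 ± 0.027, edgeR adjusted p = 0.0566, and 0.0306 with the block; outside the naming rule). B4galt6 (0.24 ± 0.046, edgeR adjusted p = 0.000192), Mgat1, which starts complex N-glycans (0.12 ± 0.026, 0.000809), and B3gnt3 (0.12 ± 0.029, 0.00192) rose. Mgat4b, which adds a branch, fell (-0.092 ± 0.027, 0.00862). Outside the naming rule, Mgat4a and B4galt1 also rose, and B3gnt7 and Fut8 fell. Mgat5, whose branch is a favoured galectin-3 ligand, had a slope of -0.011 ± 0.036 (adjusted p = 0.831; named after its value was seen).

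Among 15 enzymes that cap or divert these sugars, 6 were tested, of which 2 rose and 2 fell, counts too small to set apart from the 22.1% and 22.8% of all genes. The sialyltransferase genes St3gal1 (0.78 ± 0.13, edgeR adjusted p = 4.26e-05) and St3gal4 (0.10 ± 0.026, 0.00267) rose, the latter at a mean of 1923 CPM. St3gal1 was sparse, with 332 UMIs in all, 2.19 ± 1.29 CPM at V1 and 29.0 ± 24.7 at V6 (SD, n = 4). Low in V1, it could pass the filter through zones where it is high, so the count of 2 that rose was partly set by the filter. The core branching enzyme gene Gcnt3 (-0.43 ± 0.052, 6.15e-07) and St6galnac2 (-0.15 ± 0.034, 0.00131) fell. Gcnt3 had 85.7 ± 18.9 CPM at V1 and 23.1 ± 8.15 CPM at V6 (SD, n = 4), over the zones in which the goblet markers fell.

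A list of 29 genes covers known galectin ligands and cargo, partner proteins (Pdcd6ip, Trim16) and enzymes such as Gal3st1, Gal3st2 and Cers2. Of the 29 genes, 26 were tested. Of these, 21 rose and 0 fell, where 22.1% of all genes rose, with a median slope of 0.19. Gal3st2, Cers2 and Pdcd6ip are among the 21, while Trim16 and Gal3st1 were not called, so the count is not one of ligands alone. The list holds many brush-border genes, and Dpp4, the gene of CD26, was used for the sort. The list was also chosen with earlier results of these data known, so the 21 calls describe it and are no test of ligands. Muc3 had 80.3 ± 16.9 CPM at V1 and 594 ± 67.5 CPM at V6 (SD, n = 4; slope 0.58 ± 0.041), and the alkaline phosphatase gene Alpi had a slope of 0.44 ± 0.031. Cdhr2, a protocadherin of microvillus links (0.43 ± 0.045), and the mucin gene Muc13 (0.18 ± 0.035) rose too. Lgals3bp, which encodes a secreted galectin-3 binding glycoprotein, was not called (0.093 ± 0.067, edgeR adjusted p = 0.264), but was with mouse as a block (0.000761; 27.6% of genes called higher); it is named after its value was seen.

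Across the 24 libraries, the 3 genes closest to each member were taken by Pearson's r of log2 CPM among 2476 other genes whose mean reached 50 CPM. These libraries share zones, mice and scaling, so r is a description. Closest to Lgals3 were Rhod, a small GTPase gene (r = 0.98), Igsf23 (0.98) and Ceacam18 (0.98), whose slopes were 0.59, 0.42 and 0.68. Ceacam18 had 13.7 ± 3.74 CPM at V1 and 148 ± 44.2 CPM at V6 (SD, n = 4).

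Closest to Lgals2 were Selm, a selenoprotein gene (r = 0.95), Cotl1, which binds actin (0.95), and the goblet cell gene Spink4 (0.94), with slopes of -0.35, -0.21 and -0.47. For Lgals4 the closest were Gars (0.87), Gmds (0.87) and Serinc3 (0.87), and for Lgals9 Taf10, Adprh and the ferritin gene Fth1 (each r = 0.90). Among the members, Lgals2 had r = -0.89 with Lgals3 and 0.79 with Lgals4.

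Counting error was small for the tested members. The smallest count in a library was 391 UMIs for Lgals9, 541 for Lgals3, 1264 for Lgals2 and 4644 for Lgals4, which gives Poisson errors of 5.06%, 4.3%, 2.81% and 1.47%. Cdc42ep1 overlaps Lgals2 on the other strand and had a mean of 4.58 CPM against 3589 for Lgals2. Whether the counting used strand is not given in the sources used here.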

How the data were processed

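Bulk mcSCRB-seq libraries of 6 sorted villus zones in 4 mice were analysed. The authors deposited raw UMI counts per gene, and the submitters' processing notes name bcl2fastq 2.15.0.4 and build GRCm38. No aligner or filter is given in the sources used here. The counts went into edgeR 4.0.16 under R 4.3.3: filterByExpr by zone (minimum count 10, minimum total 15), TMM, and a robust quasi-likelihood fit of 1 mean for every zone across the 24 libraries, with 18 residual degrees of freedom. A gene was called when its p, adjusted by Benjamini-Hochberg across 9328 genes, was under 0.05. The fit was tested on simulated data.

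Libraries with the same replicate number come from the same mouse. After removal of zone means, all 60 pairs of libraries from 1 mouse had r above 0.1 (lowest 0.184), so the fit blocked by mouse (15 residual degrees of freedom) is given where it changes a call. None of the 36 same-zone pairs was a copy (chi-square 3.35 to 27.5 per degree of freedom).

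Alternatives were the block, DESeq2 1.42.0 size factors or test, total UMIs, no filter, limma-voom (limma 3.58.1), leaving out each mouse, the 2 zones of a comparison alone, V2 to V6, V3 to V6 with the block, and thinning. A goblet score, the deposited index as a block and leaving out V4 of mouse 4 were added after seeing the data, as was V2 to V6 with the block; that index was read as a pool label, which its header does not state. The members and lists were chosen with earlier results of these data known. Named genes beyond the members were the other family genes, the 3 closest by correlation for each member with a mean of at least 50 CPM (prior count 2; no provisional names and no mitochondrially encoded genes), and from each pathway list 3 genes ranked by adjusted p plus the gene of highest mean. Coordinates are from GENCODE M21, and promoters of 4 of the 5 members from the RefSeq table.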

Additional observations from a re-analysis of the deposited data

Results flagged for a closer look

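Lgals2 in V2 of mouse 2, at 5589 CPM, stood apart from the other 3 mice, which had 4008, 3807 and 3804 CPM. The gap to the nearest of them was 0.886 of the whole range, above Dixon's 95% critical value for 4 samples. Of 24 groups of 4 libraries looked at (4 genes in 6 zones), 1 was flagged in this way, and chance flags about 1 in 20. Mouse 2 had the highest Lgals2 level in each of the other zones too.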

How the results depend on the processing

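Lgals3 kept its rise, called on the slope in each of the 17 alternatives run, with slopes of 0.36 to 0.55. The 2 slope calls became 1, with Lgals2 lost, over V2 to V6, over V3 to V6 with the replicate block, and with a goblet score and the block, in fits that called 12.5%, 7.66% and 2.97% of all genes against 44.9%. In the goblet score fit V6 against V1 also went from 2 calls to 1 (Lgals2 -0.40, adjusted p = 0.605). With the replicate block, calls of single steps between neighbouring zones went from 0 to 6 and curvature calls from 1 to 2; the block changed no slope call of the 4 members. Leaving out 1 mouse at a time gave 0 to 1 curvature calls, and 0 without mouse 1 or without mouse 4. In edgeR without the block, no step of a member was called, with 5 at an unadjusted p under 0.05, and DESeq2 and limma-voom called 0. Signs turned for the Lgals2 slope over V3 to V6 with the block (0.023), for Lgals4 with the goblet score (slope 0.090, V6 minus V1 0.45, adjusted p = 0.475 and 0.479), and for Lgals2 in V6 minus V5 (0.020), which was -0.057 with total UMIs, -0.015 to 0.034 leaving out 1 mouse at a time (negative without mouse 2) and -0.020 in a model of those zones alone; the cause was not tested. Over V2 to V6 with the replicate block, 2 slopes were called. Slope calls were 3 with total UMIs and with the deposited index, in fits that called 52.7% and 56.1% of all genes. The added one was Lgals4 (-0.11, adjusted p = 0.0023, and -0.050, 0.0318), which the replicate block did not call (-0.043, 0.0544). Total UMIs also gave 3 for V6 against V1 and for any zone difference. With total UMIs the slope calls of all genes were 1225 higher and 3692 lower, against 2063 and 2126 with TMM. Lgals1 is limited by depth, at 37 UMIs in all.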
